A study of Homo sapiens with 32 samples.

Results

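Irradiated MCF10A cells that lack the DNA sensor cGAS were compared with irradiated wild-type (WT) MCF10A cells 5 days after exposure. MCF10A cells come from human breast epithelium and are immortal but not transformed. The comparison rests on 4 of the 32 libraries of the series, 2 from the cGAS knockout (KO) line after 10 Gy and 2 from WT cells given the vehicle DMSO and 10 Gy, and it covers every gene of the tables. Of 60332 genes, 15190 passed the filter on low counts and were tested.

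Further groups of 2 libraries each, with sample names built like those of the compared libraries, were used to place these values. They were STING KO and XRCC4 KO cells at 5 days after 10 Gy, WT cells at 5 days after 10 Gy with a CDK1 inhibitor, WT cells with DMSO at 3 days after 10 Gy, and untreated WT cells. The names do not say whether all groups were handled in the same batch. The sample names mention DMSO for the irradiated WT cells and no vehicle for the knockouts. The knockout lines had been made with lentiviral Cas9 and a lentiviral guide, were selected with blasticidin and puromycin, and were grown from single cells, which the WT cells are not said to have been. No knockout was measured without irradiation, so a difference from WT that the line already had and one that followed irradiation cannot be told apart. The sample names give no clone number, and nothing in the labels ties the 2 libraries of a group to separate cultures. The p-values therefore measure a spread within groups, pooled over the 14 libraries fitted together, that may be technical.

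cGAS, encoded by MB21D1, binds DNA in the cytosol and makes the cyclic dinucleotide cGAMP, which activates STING (TMEM173). STING recruits the kinase TBK1, TBK1 phosphorylates IRF3, and IRF3 switches on interferons. Secreted interferons act through their receptors, JAK kinases and a STAT complex with STAT2 and IRF9 that binds the interferon-stimulated response element (ISRE) of interferon-stimulated genes. In irradiated epithelial cells the pathway is best known for sensing DNA of micronuclei that form when cells divide with broken chromosomes.

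Levels below are CPM, counts scaled to a common library total after a TMM factor (edgeR's correction for library composition). Fold changes are log2 values of cGAS KO over WT with their standard error, and a gene is called lower or higher at a Benjamini-Hochberg adjusted p below 0.05 in edgeR's quasi-likelihood test over all 15190 genes. Total counts were 16595879 and 11844992 for cGAS KO and 14674426 and 16273395 for WT. The 2 cGAS KO libraries were far more alike than the 2 WT libraries: a chi-square statistic divided by the number of genes, about 1 where only counting error separates a pair, was 2.95 in cGAS KO cells and 32.7 in WT cells. Across the 7 groups of the fit it ranged from 2.95 to 45.1, the highest in WT cells with the CDK1 inhibitor.

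MB21D1 itself (hg19 chromosome 6, 74078278 to 74161999) had 1.24 and 1.30 CPM in cGAS KO cells, against 17.2 and 15.1 CPM in WT cells. It was called lower, with a log2 fold change of -3.66 ± 0.23 and an adjusted p of 3.7e-05. The 20 and 15 reads that remained in the KO libraries do not tell whether a protein was made. TMEM173 was close between the groups, at 63.5 and 66 CPM in cGAS KO cells and 83.4 and 53 CPM in WT cells, and its change of -0.07 ± 0.21 was not called (adjusted p 0.86).

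Across all genes, 960 were called lower in cGAS KO cells (6.32% of those tested) and 943 were called higher (6.21%). In 5183 genes (34.1%) both cGAS KO libraries lay below both WT libraries, and in 4868 (32%) both lay above. The median log2 fold change of all tested genes was -0.02. The counts of calls depend on each library: without cGAS KO library 1 or 2 there were 154 or 192 genes lower and 159 or 216 higher, and without WT library 1 or 2 there were 400 or 517 lower and 299 or 306 higher. Of the 113 called genes among the 138 that the naming rule picked, 33 kept their call with each library left out in turn. They included MB21D1, IFI16, STAT2, HLA-B, ICAM1, CD74, CFB, C1R, TNFAIP2, PYCARD, IL18, KRT5 and CYP51A1.

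The lower genes included large parts of the interferon response and antigen presentation and 8 of 21 complement and other antimicrobial genes, whereas the G2-M and G1-S lists gave no call in the fit of all 14 libraries. The plot of list members shows these counts. Over all genes 6.32% were called lower and 6.21% higher, the shares to set beside the count of every list below. In the lists of RNA sensors, interferon-stimulated effectors, MHC class I, MHC class II and luminal genes no member was called higher by edgeR, DESeq2 or any other fit run, and none had an unadjusted p below 0.05 in that direction.

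**Figure D1:**
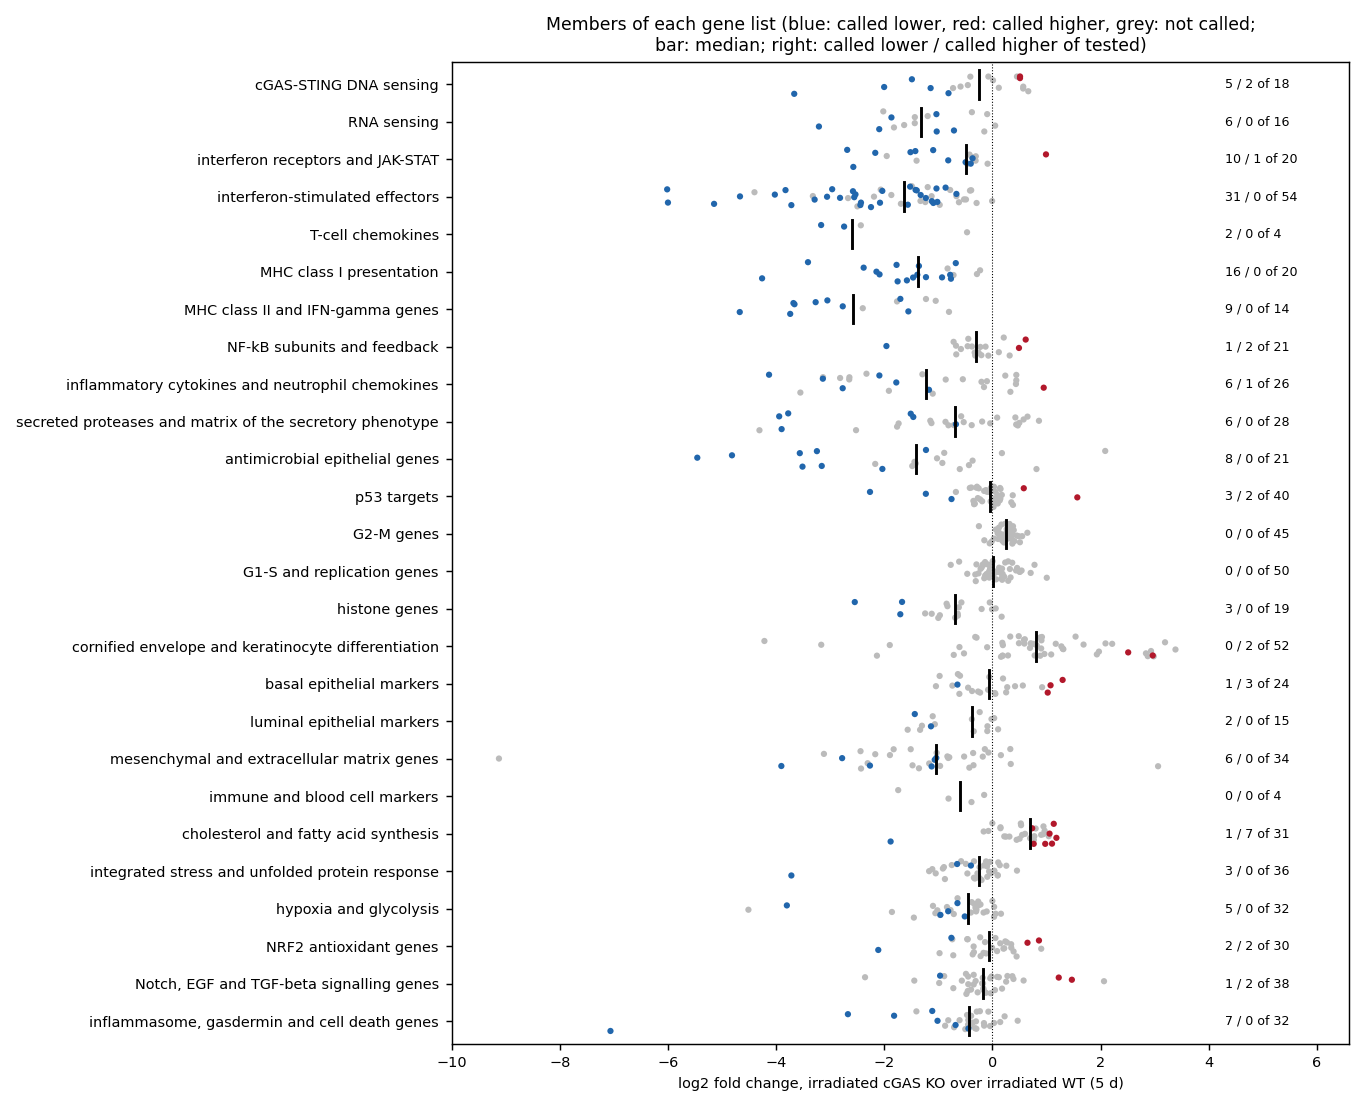
Each point is a tested gene of a list (lists with at least 4 tested genes), placed by its log2 fold change in irradiated cGAS KO over irradiated WT cells at 5 days, and black bars mark list medians. Interferon-stimulated, MHC class I and MHC class II lists lie left of 0 with 31 of 54, 16 of 20 and 9 of 14 members called lower, while G2-M and G1-S lists hold no call in the fit shown.

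The genes are described in the order of the pathway, from sensors and ligands to the targets of interferon. The promoter windows of 4 genes are shown first because they carry the ISRE, the element that the interferon-activated complex binds. They are RefSeq windows of GRCh38.p14 from 250 bases before to 50 bases after the gene start, written in the direction of the gene. Capitals mark the motif GAAANNGAA or its reverse complement, where N is any base, and neighbouring matches can overlap.

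ISG15 (chr1:1013247-1013546, strand +): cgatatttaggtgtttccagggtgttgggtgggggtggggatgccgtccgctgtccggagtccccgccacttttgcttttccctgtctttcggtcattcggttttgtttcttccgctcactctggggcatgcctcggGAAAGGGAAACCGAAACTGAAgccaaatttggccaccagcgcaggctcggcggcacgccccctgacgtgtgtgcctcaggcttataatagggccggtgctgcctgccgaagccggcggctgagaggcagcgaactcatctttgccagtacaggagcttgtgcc
IFIT1 (chr10:89392373-89392672, strand +): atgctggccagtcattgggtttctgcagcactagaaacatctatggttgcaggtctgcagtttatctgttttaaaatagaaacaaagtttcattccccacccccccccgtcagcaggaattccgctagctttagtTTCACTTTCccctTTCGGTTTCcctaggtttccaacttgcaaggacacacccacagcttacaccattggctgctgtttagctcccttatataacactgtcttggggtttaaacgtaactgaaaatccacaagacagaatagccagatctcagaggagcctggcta
IFITM1 (chr11:313790-314089, strand +): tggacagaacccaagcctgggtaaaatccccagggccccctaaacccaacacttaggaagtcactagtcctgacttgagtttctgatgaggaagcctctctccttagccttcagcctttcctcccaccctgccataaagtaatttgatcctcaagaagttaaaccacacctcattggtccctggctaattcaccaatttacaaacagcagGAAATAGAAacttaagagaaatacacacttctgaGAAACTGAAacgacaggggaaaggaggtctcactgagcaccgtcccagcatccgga
B2M (chr15:44711267-44711566, strand +): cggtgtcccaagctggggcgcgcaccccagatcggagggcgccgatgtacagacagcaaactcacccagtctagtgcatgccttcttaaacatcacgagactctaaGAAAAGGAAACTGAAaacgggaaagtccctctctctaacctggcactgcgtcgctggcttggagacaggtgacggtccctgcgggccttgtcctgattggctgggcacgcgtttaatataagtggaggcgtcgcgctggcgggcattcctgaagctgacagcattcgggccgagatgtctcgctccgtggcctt

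ISG15 is a ubiquitin-like modifier, IFIT1 binds foreign RNA caps, IFITM1 blocks virus entry and B2M is the invariant chain of MHC class I. Of the 54 tested interferon-stimulated effectors, 44 had a window in the table, and 29 of those windows (65.9%) held the motif on either strand. Among the effectors called lower it was 14 of 24 windows (58.3%). Among the MHC class I genes it was 9 of 16 windows (56.2%), and the windows of HLA-B and PSMB9 held no match. Among all 27305 windows it was 2264 (8.29%), and among those of the tested genes 6.53%. These are matches of letters and do not show that a factor bound there.

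Among the genes of cytosolic DNA sensing, 5 of 18 tested members were called lower and 2 higher, against 6.32% and 6.21% over all genes. The 5 include MB21D1, the gene targeted in this knockout. Without cGAS KO library 1, cGAS KO library 2 or WT library 1 only 2 were lower and none higher. SAMHD1, a phosphohydrolase that lowers the dNTP pool, had 47.7 and 40.9 CPM in cGAS KO cells, against 247 and 108 CPM in WT cells, a change of -2.0 ± 0.41 (adjusted p 0.014). TREX1, the exonuclease that removes cytosolic DNA, had 5.38 and 4.50 CPM in cGAS KO cells, against 19.2 and 8.71 CPM in WT cells, and fell as well (-1.49 ± 0.41, adjusted p 0.039). In both genes the KO libraries lay below both irradiated WT libraries. Untreated WT cells had 20.1 and 20.9 CPM of SAMHD1, below the knockout, and 3.51 and 6.67 CPM of TREX1, around it. IFI16, a nuclear DNA sensor, had 208 and 205 CPM in cGAS KO cells and 535 and 378 CPM in WT cells (-1.14 ± 0.17, adjusted p 0.0032). The members called higher were IRF3 and BANF1, a chromatin protein that coats DNA and competes with cGAS for it. IRF3 had 87.8 and 84.2 CPM in cGAS KO cells and 57.9 and 62.9 CPM in WT cells. IRF3 lies on chromosome 19 and BANF1 on chromosome 11, whose genes were higher in the knockout as a whole, with median log2 fold changes of 0.26 and 0.37 (described further on). TBK1, at 48.0 and 48.5 CPM in cGAS KO cells and 46.5 and 42.4 CPM in WT cells, was not called.

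Interferon transcripts were scarce. IFNB1, the main type I interferon of epithelial cells, did not pass the filter on low counts, with 0 and 1 reads in cGAS KO cells and 14 and 4 reads in WT cells. The type III interferon IFNL1 passed it, at 0.247 and 0.260 CPM in cGAS KO cells, against 4.33 and 0.83 CPM in WT cells, and was called lower (-3.29 ± 0.92, adjusted p 0.045). DESeq2 did not call it, nor did 3 of the 4 fits that left out 1 library. Its relative IFNL2 was not tested, with 0 and 0 reads in cGAS KO cells and 39 and 2 reads in WT cells. The WT reads of each of these genes came mostly from WT library 1. IFNE was the other ligand tested and was not called. Fewer cells making a transcript and less of it per cell cannot be told apart in these bulk samples, here or in what follows.

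Of the genes of interferon receptors and JAK-STAT signalling, 10 of 20 were called lower and 1, IRF5, higher (6.32% and 6.21% over all genes). IRF5 lies on chromosome 7, where the median log2 fold change of all genes was 0.34. The 10 lower genes became 1 without cGAS KO library 1, cGAS KO library 2 or WT library 1, and 5 without WT library 2, and IRF5 was called in none of these fits. STAT2 had 89.0 and 88.9 CPM in cGAS KO cells, against 309 and 200 CPM in WT cells (-1.52 ± 0.21, adjusted p 0.0025). With each library left out in turn its adjusted p was at most 0.037. IRF9, the DNA-binding partner of STAT2, was not called, at 62.8 and 57.9 CPM in cGAS KO cells and 96.1 and 70.9 CPM in WT cells. USP18, an interferon-induced brake on the receptor, and SOCS3, a brake on cytokine signalling, were lower too (-2.17 ± 0.53 and -2.69 ± 0.68, adjusted p 0.027 and 0.029). The receptor subunit IFNLR1 was also lower (-2.57 ± 0.75, adjusted p 0.048). It had 0.247 and 0.433 CPM in cGAS KO cells (4 and 5 reads), against 2.68 and 1.36 CPM in WT cells. The subunits IFNGR1 and IFNAR1 moved less, at -0.50 ± 0.13 and -0.40 ± 0.11 (adjusted p 0.029 and 0.035).

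Among the genes of RNA sensing, 6 of 16 were called lower and none higher, with a list median of -1.32. None was called without either cGAS KO library or with the 4 compared libraries alone, 1 was called without WT library 1 (list median -0.52) and 7 without WT library 2. OAS2, which makes an activator of RNase L, had 44.5 and 48.0 CPM in cGAS KO cells, against 684 and 170 CPM in WT cells (-3.21 ± 0.85, adjusted p 0.04). The endosomal receptor TLR3 had 15.1 and 14.2 CPM in cGAS KO cells and 87.0 and 38.2 CPM in WT cells (-2.09 ± 0.35, adjusted p 0.0057). In the untreated WT cells TLR3 stood at 17.6 and 14.1 CPM, as low as in the knockout. RIG-I (DDX58) and IFIH1 were not called: DDX58 had 112 and 95.7 CPM in cGAS KO cells and 551 and 185 CPM in WT cells (-1.82 ± 0.59, adjusted p 0.08), and the IFIH1 groups overlapped.

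The interferon-stimulated effectors, 54 tested of 56 listed, all had a negative log2 fold change, and 31 were called lower and none higher, with a median of -1.63. In 47 of them both cGAS KO libraries lay below both WT libraries, against 34.1% over all genes. LAMP3, a lysosomal membrane protein, and the antiviral GTPase MX1 had the largest changes. MX1 (hg19 chromosome 21, 42792231 to 42831141) had 3.52 and 3.38 CPM in cGAS KO cells, against 355 and 88.3 CPM in WT cells (-6.00 ± 1.05, adjusted p 0.0079). LAMP3 had 1.42 and 1.30 CPM in cGAS KO cells, against 154 and 24.1 CPM in WT cells (-6.01 ± 0.85, adjusted p 0.0034). IFITM1 had 8.04 and 7.19 CPM in cGAS KO cells, against 399 and 143 CPM in WT cells (-5.15 ± 0.74, adjusted p 0.0037). Untreated WT cells had 2.64 and 1.52 CPM of MX1, 1.46 and 1.11 CPM of LAMP3 and 8.64 and 27.4 CPM of IFITM1, so for these genes the irradiated knockout was far nearer to untreated than to irradiated WT cells. None of these 3 genes kept its call in every fit that left out 1 library. In those fits the log2 fold change of MX1 lay between -6.68 and -4.67.

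**Figure D2:**
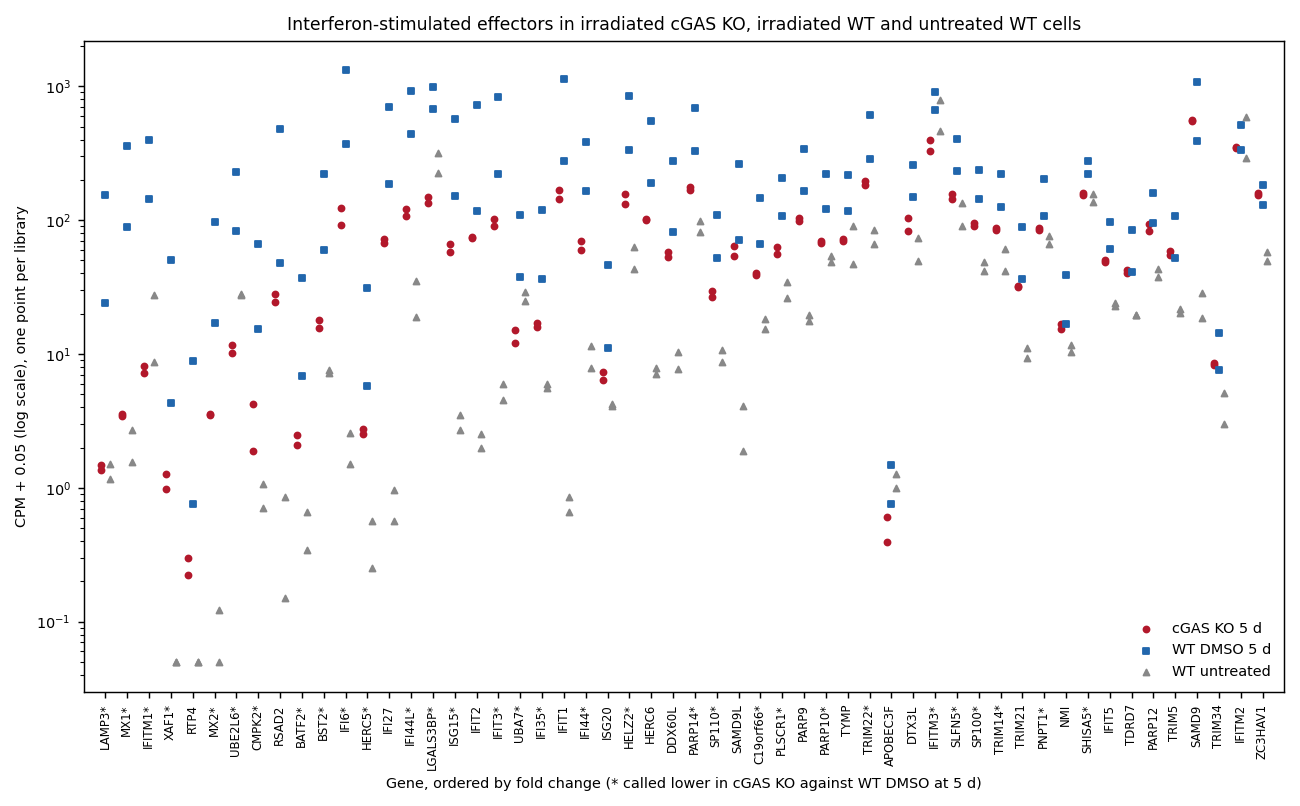
CPM plus 0.05 on a log axis for the 54 tested interferon-stimulated effectors, with a point for each library of irradiated cGAS KO cells (circles), irradiated WT cells (squares) and untreated WT cells (triangles), genes ordered by fold change. Both circles lie below both squares in 47 genes.

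For ISG15, IFIT1 and SAMD9 the irradiated cGAS KO cells lay above untreated WT cells, a difference that was not tested. SAMD9 was chosen after its values were seen. ISG15 had 66.3 and 57.8 CPM in cGAS KO cells and 567 and 151 CPM in irradiated WT cells, while untreated WT cells had 2.64 and 3.44 CPM. Its change from irradiated WT was -2.53 ± 0.72 (adjusted p 0.049). IFIT1 had 166 and 144 CPM in cGAS KO cells, 1138 and 279 CPM in irradiated WT cells and 0.805 and 0.607 CPM in untreated WT cells, and its change of -2.19 ± 0.84 was not called (adjusted p 0.13). SAMD9, an antiviral factor, had 556 and 551 CPM in cGAS KO cells, inside the WT range of 1084 and 392 CPM, and was not called (-0.41 ± 0.52, adjusted p 0.67). In untreated WT cells it had 28.4 and 18.5 CPM. The mean log2 CPM over the list was 5.16 and 5.06 in cGAS KO cells, 4.70 and 4.09 in STING KO cells, 4.25 and 4.32 in XRCC4 KO cells, 7.66 and 6.19 in irradiated WT cells and 3.36 and 3.35 in untreated WT cells.

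The number of called effectors depends on single libraries. It was 2 without cGAS KO library 1, 3 without cGAS KO library 2, 6 without WT library 1 and 41 without WT library 2. With the 4 compared libraries fitted alone it was 7. The median log2 fold change of the list stayed between -2.23 and -0.85 in these 5 fits.

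T-cell chemokines gave 2 calls among 4 tested, and none without cGAS KO library 1, cGAS KO library 2 or WT library 1. CCL5 had 0.989 and 0.520 CPM in cGAS KO cells, against 8.11 and 2.37 CPM in WT cells (-2.74 ± 0.79, adjusted p 0.046). CXCL11 had 1.17 and 1.21 CPM in cGAS KO cells, against 16.2 and 5.39 CPM in WT cells (-3.17 ± 0.88, adjusted p 0.044). CXCL10, the chemokine most often used as a readout of cGAS and STING, had 1.42 and 1.56 CPM in cGAS KO cells and 13.5 and 2.73 CPM in WT cells, and was not called (adjusted p 0.074).

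Antigen presentation was the group with the largest share of calls. Of 20 MHC class I genes, 16 were called lower and none higher, with a median of -1.37. HLA-B (hg19 chromosome 6, in the interval 31236526 to 31325414) had 25.4 and 18.8 CPM in cGAS KO cells, against 580 and 270 CPM in WT cells (-4.26 ± 0.41, adjusted p 0.00064). It was called with each library left out in turn, with an adjusted p of at most 0.016. B2M had 434 and 398 CPM in cGAS KO cells, against 1461 and 837 CPM in WT cells (-1.47 ± 0.30, adjusted p 0.013). The immunoproteasome subunit PSMB9 had 1.05 and 0.866 CPM in cGAS KO cells and 15.1 and 5.63 CPM in WT cells (-3.41 ± 0.62, adjusted p 0.0068). HLA genes share much of their sequence, so reads could be split among them in counting. Without cGAS KO library 1 or 2 the calls in this list were 4 and 4, and without WT library 1 they were 8.

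HLA-B was also lower in the irradiated knockout than in untreated WT cells, which had 132 and 185 CPM. STING KO cells had 23.8 and 19.2 CPM and XRCC4 KO cells 24.5 and 21.7 CPM, close to the cGAS KO level. In the MHC class II and interferon-gamma list, 9 of 14 genes were called lower and none higher, with a median of -2.58. Without cGAS KO library 1 or 2 there were 2 or 3 calls, and without WT library 1 there were 5. The adhesion receptor ICAM1 had 2.97 and 3.90 CPM in cGAS KO cells, against 49.0 and 42.0 CPM in WT cells (-3.74 ± 0.30, adjusted p 0.00022). It too was below untreated WT cells, which had 32.2 and 45.6 CPM. CD74, the MHC class II chaperone, was at 0.247 and 0.0866 CPM in cGAS KO cells and 4.4 and 5.1 CPM in WT cells (-4.67 ± 0.57, adjusted p 0.0018).

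**Figure D3:**
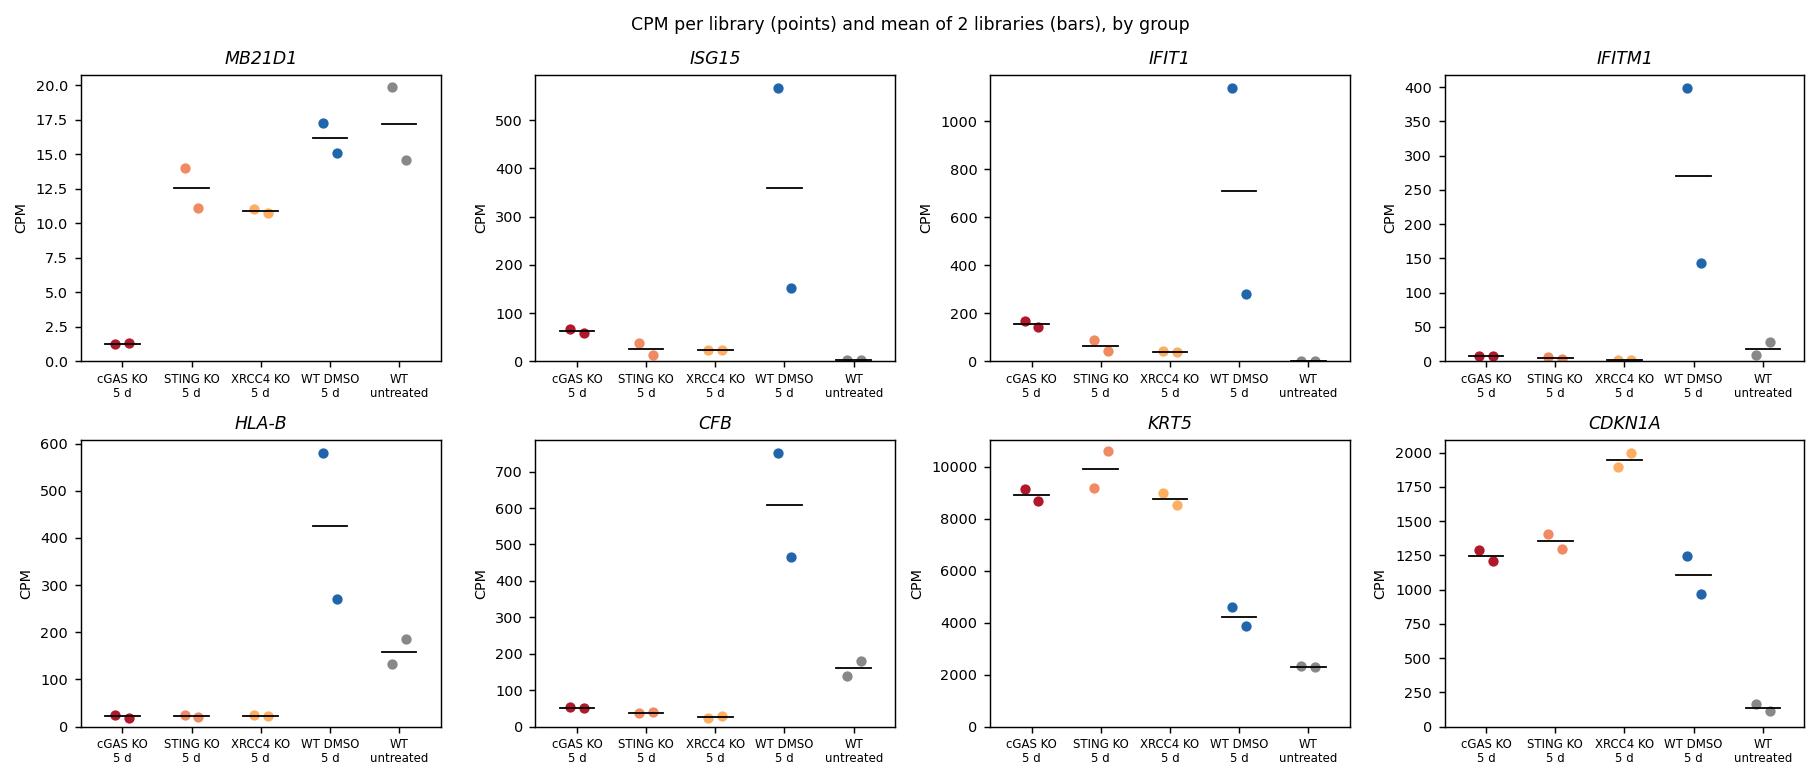
CPM of 8 genes in each library of 5 groups, with bars at the means of 2 libraries. MB21D1 is low in cGAS KO cells, the interferon-stimulated ISG15, IFIT1 and IFITM1 are highest in irradiated WT cells, HLA-B and CFB are low in all 3 knockout lines, KRT5 is high in them, and CDKN1A is above untreated cells in every irradiated group.

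Complement and other antimicrobial genes were lower in 8 of 21 cases and higher in none in the fit of all 14 libraries, and lower in 5 or 4 without cGAS KO library 1 or 2. Without the filter on low counts 2 were called higher, and with the 4 libraries alone or voom 1 was. CFB, a protease subunit of the alternative pathway, had 52.9 and 50.05 CPM in cGAS KO cells, against 751 and 464 CPM in WT cells (-3.56 ± 0.41, adjusted p 0.0014). C1R, a protease of the classical pathway, fell to 7.67 and 6.23 CPM in cGAS KO cells, against 70.4 and 89.1 CPM in WT cells (-3.51 ± 0.46, adjusted p 0.0023). The complement protein C3 changed less in proportion, with 2583 and 2472 CPM in cGAS KO cells and 6252 and 5592 CPM in WT cells (-1.23 ± 0.13, adjusted p 0.00064). CFB and C1R were low in the other knockouts as well, for CFB at 36.3 and 40.0 CPM in STING KO cells and 24.4 and 28.6 CPM in XRCC4 KO cells. The calprotectin genes S100A8 and S100A9 were not called.

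Of 26 tested inflammatory cytokines, 6 were called lower and 1 higher. Without either cGAS KO library none was lower, and without WT library 2 it was 1. CSF3, the granulocyte growth factor, had 21.5 and 27.1 CPM in cGAS KO cells, against 126 and 300 CPM in WT cells (-3.14 ± 0.58, adjusted p 0.0097). The alarmin IL33 had 0.927 and 0.606 CPM in cGAS KO cells, against 4.81 and 22.8 CPM in WT cells (-4.13 ± 1.04, adjusted p 0.032). The death ligand TRAIL (TNFSF10) had 8.16 and 9.26 CPM in cGAS KO cells, against 88.9 and 29.8 CPM in WT cells (-2.77 ± 0.64, adjusted p 0.023). IL18 was the member called higher, at 355 and 352 CPM in cGAS KO cells and 203 and 163 CPM in WT cells (0.95 ± 0.14, adjusted p 0.0026). IL18 lies on chromosome 11. The neutrophil chemokine CXCL8 was not called at 13 and 15 CPM in cGAS KO cells and 91.5 and 154 CPM in WT cells (adjusted p 0.084), nor were IL6, IL1A and IL1B. Of NF-kB genes, 1 of 21 was called lower and 2 were called higher, near the 6.32% and 6.21% over all genes. In 15 of the 21 both cGAS KO libraries lay below both WT libraries and in 5 above. Over all genes it was 34.1% and 32%. The list median was -0.30. The one called lower was TNFAIP2, a TNF-induced gene, at 36.0 and 41.8 CPM in cGAS KO cells and 146 and 156 CPM in WT cells (-1.96 ± 0.12, adjusted p 3.7e-05).

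Among secreted proteases and matrix genes of the senescence-associated secretory phenotype, 6 of 28 were lower and none higher (6.32% and 6.21% over all genes). At an unadjusted p below 0.05, 2 were higher, and DESeq2 called 1 higher. Without cGAS KO library 1 or 2 there were 0 or 1 lower, and without WT library 1 or 2 there were 4 or 2. IGFBP3, a carrier of insulin-like growth factors, had 2.47 and 2.68 CPM in cGAS KO cells, against 29.6 and 47.2 CPM in WT cells (-3.90 ± 0.63, adjusted p 0.005). The protease inhibitor TIMP1 had 278 and 252 CPM in cGAS KO cells, against 636 and 823 CPM in WT cells (-1.46 ± 0.31, adjusted p 0.015). In the list of inflammasome and cell death genes 7 of 32 were lower and none higher, and 1 was lower without cGAS KO library 1, cGAS KO library 2 or WT library 1. PYCARD, the adaptor of inflammasomes, had 0 and 1 reads in cGAS KO cells and 92 and 101 reads in WT cells (adjusted p 0.00077), and 0 CPM in all 4 libraries of the STING KO and XRCC4 KO lines.

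Targets of p53, the factor that irradiation activates, were called about as often as genes in general. CDKN1A, the p53 target that encodes the cell cycle inhibitor p21, had 1286 and 1210.1 CPM in cGAS KO cells and 1243 and 970 CPM in irradiated WT cells (0.17 ± 0.19, adjusted p 0.62), while untreated WT cells had 162 and 115 CPM. MDM2, the p53 ubiquitin ligase, had 650 and 637 CPM in cGAS KO cells and 859 and 769 CPM in WT cells and was not called. Of 40 p53 targets, 3 were called lower and 2 higher, with a median of -0.05, against 6.32% lower and 6.21% higher over all genes. GDF15, a secreted stress cytokine, was lower at 24.7 and 26.1 CPM in cGAS KO cells and 157 and 86.5 CPM in WT cells (-2.26 ± 0.45, adjusted p 0.013).

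No gene of the G2-M list (45 tested) or of the G1-S list (50 tested) was called in either direction by edgeR in the fit of all 14 libraries. At an unadjusted p below 0.05 each list had 1 gene, higher in cGAS KO cells. DESeq2 called 0 in both lists, and limma's voom with weights per group called 1 G2-M gene and 2 G1-S genes, all higher. Without the filter on low counts edgeR called 2 G2-M genes higher, 1 G1-S gene higher and 1 lower. With the 4 compared libraries alone it called 4 G2-M and 3 G1-S genes, and with the 5-day groups without inhibitor, a fit chosen after seeing the data, 4 and 4, all higher. MKI67 had 98.7 and 91.8 CPM in cGAS KO cells and 68.3 and 109 CPM in WT cells, and CDK1 had 30.2 and 28.2 CPM in cGAS KO cells and 20.3 and 32.1 CPM in WT cells. For both genes the cGAS KO values lay between the 2 WT values. CCNB1, also not called, had 51 and 49.9 CPM in cGAS KO cells, above the 33.7 and 45.65 CPM in WT cells. In 20 of 45 G2-M genes both cGAS KO libraries lay above both WT libraries and in 0 below, against 32% and 34.1% over all genes. The G2-M median was 0.25, and 4 members were negative. That median was 0.03 without WT library 1 and 0.52 without WT library 2. For the 50 G1-S genes it was 16 above and 7 below, with a median of 0.02.

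The basal keratins KRT5 and KRT14 were among the genes called higher, while the list of basal markers as a whole had a median of -0.07. KRT5 had 9152 and 8659 CPM in cGAS KO cells, against 4606 and 3849 CPM in WT cells (1.07 ± 0.15, adjusted p 0.0021). KRT14, its partner, had 2572 and 2298 CPM in cGAS KO cells and 977 and 1004 CPM in WT cells (1.30 ± 0.34, adjusted p 0.035). S100A2, a basal calcium-binding protein, had 5185 and 4966 CPM in cGAS KO cells and 2546 and 2452 CPM in WT cells (1.02 ± 0.18, adjusted p 0.0061). KRT8, a luminal keratin, went the other way, with 107 and 97.9 CPM in cGAS KO cells and 316 and 239 CPM in WT cells (-1.44 ± 0.33, adjusted p 0.021). In the whole lists, 3 of 24 basal markers were higher and 1 lower, 13 had a negative log2 fold change, and both cGAS KO libraries lay below both WT libraries in 10 and above them in 8. The one lower was the integrin ITGA2, at 167 and 166 CPM in cGAS KO cells and 237 and 285 CPM in WT cells (-0.65 ± 0.15, adjusted p 0.022). Further, 2 of 15 luminal markers were lower and none higher, and 6 of 34 mesenchymal and matrix genes were lower and none higher, against 6.32% lower and 6.21% higher over all genes. The luminal calls were lost without cGAS KO library 1, cGAS KO library 2 or WT library 1. The mesenchymal calls became 0 or 1 without cGAS KO library 1 or 2, and 4 or 2 without WT library 1 or 2. In the list of the cornified envelope, which keratinocytes build as they differentiate, 2 of 52 genes were higher, KRT13 and RPTN, and none was lower, with a median of 0.80. At an unadjusted p below 0.05 it was 11 higher and 2 lower, and DESeq2 called 4 higher and 1 lower. Without the filter on low counts 25 were higher and 6 lower, with the 4 compared libraries alone 11 and 1, and with voom 10 and 1. The median of this list was 1.44 without WT library 1 and 0.47 without WT library 2.

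Cholesterol and fatty acid synthesis was the list with the most genes called higher, 7 of 31, with 1 lower and a median of 0.70. It was 1 without cGAS KO library 1, cGAS KO library 2 or WT library 2, and 2 without WT library 1. DHCR7, the last enzyme of cholesterol synthesis, had 341 and 302 CPM in cGAS KO cells, against 144 and 140 CPM in WT cells (1.18 ± 0.28, adjusted p 0.023). CYP51A1, which demethylates lanosterol, had 306 and 289 CPM in cGAS KO cells, against 150 and 121 CPM in WT cells (1.13 ± 0.19, adjusted p 0.0044). FADS2, a fatty acid desaturase, was the one called lower, at 27.9 and 24.3 CPM in cGAS KO cells and 105 and 87.7 CPM in WT cells. Of the 7 genes called higher, 5 (SC5D, SQLE, FDFT1, CYP51A1 and DHCR7) lie on the chromosomes described next.

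The genes called higher were concentrated on 5 chromosomes, which were picked out after their values were seen. On chromosome 11, 225 of 845 tested genes were called higher (26.6%). The shares were 29.4% on chromosome 13, 21.9% on chromosome 8, 20.8% on chromosome 7 and 16.3% on chromosome 19, against 6.21% over all genes. Together these chromosomes held 749 of the 943 higher genes (79.4%) among 3461 of the tested genes (22.8%). On all other chromosomes 194 of 11729 genes were called higher (1.65%) and 832 lower (7.09%). Of the 749 genes, 704 had a log2 fold change below 1, so most of these changes were smaller than 2-fold. The shift was shared by most genes of the 5 chromosomes, since 74.9% of them had a positive log2 fold change against 39.5% elsewhere.

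The median log2 fold change was 0.37 on chromosome 11, 0.40 on 13, 0.34 on 7, 0.31 on 8 and 0.26 on 19, and was below 0 on every other chromosome, the lowest being -0.21 on chromosome 21. It was alike in all 4 pairings of a cGAS KO library with a WT library, from 0.357 to 0.37 on chromosome 11 and from 0.218 to 0.274 on chromosome 19. Set against untreated WT cells, which are not part of this contrast but entered the shared fit, cGAS KO cells gave medians of 0.41 on chromosome 11, 0.27 on 13, 0.34 on 7, 0.32 on 8 and 0.26 on 19. The other knockout lines, compared with the same irradiated WT libraries, had medians of 0.38 (STING KO) and 0.35 (XRCC4 KO) on chromosome 11 and of 0.43 and 0.35 on chromosome 13. Untreated WT cells differed from irradiated WT cells by -0.04 and 0.07 on those chromosomes. DNA was not measured in these libraries. With other settings, the 5 chromosomes held between 62.6% and 90.6% of the genes called higher.

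**Figure D4:**
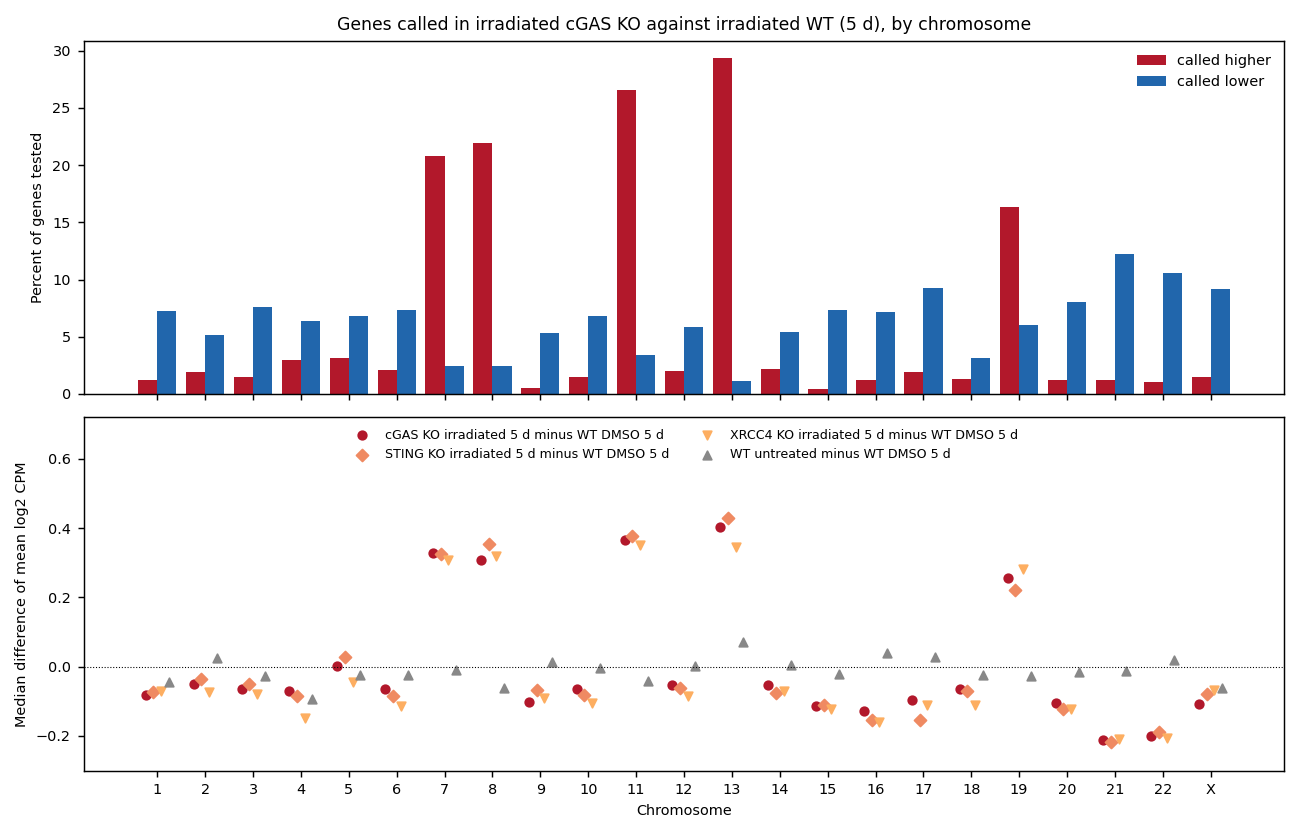
Top, percent of tested genes called higher (red) or lower (blue) in irradiated cGAS KO against irradiated WT cells on each chromosome; bottom, median difference of mean log2 CPM from irradiated WT cells for 3 knockout lines and untreated WT cells. Chromosomes 7, 8, 11, 13 and 19 stand out in all 3 knockouts, with 16.3% to 29.4% of genes called higher in cGAS KO cells, and not in untreated WT cells.

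Chromosome 19 also held a group of zinc finger genes that were nearly silent in the knockout. Of 195 tested genes with a ZNF symbol on this chromosome, 29 were called lower and 13 higher, with a median log2 fold change of 0.15. Over all genes the shares were 6.32% lower and 6.21% higher. Of the 29 lower ones, 12 had at most 3 reads over both cGAS KO libraries. Among the 879 other genes tested on chromosome 19, 36 were called lower, 8 of them with so few reads, and 162 higher. Of the 233 tested ZNF genes elsewhere, 16 were called lower, near the share over all genes, and 2 of these had so few reads. Most ZNF genes of this kind encode KRAB zinc finger proteins, repressors of transposable elements. ZNF829 had 0 and 0 reads in cGAS KO cells, against 75 and 81 reads in WT cells, a level at least 45.9-fold lower on a floor of 3 reads over the group (adjusted p 0.00026). ZNF880 likewise had 0 and 0 reads in cGAS KO cells, against 56 and 63 reads in WT cells, at least 35-fold lower (adjusted p 0.0011). ZNF790 had 1 and 0 reads in cGAS KO cells, against 170 and 169 reads in WT cells (adjusted p 8.1e-05). STING KO cells kept 45 and 32 reads of ZNF790, while XRCC4 KO cells had 1 and 1.

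**Figure D5:**
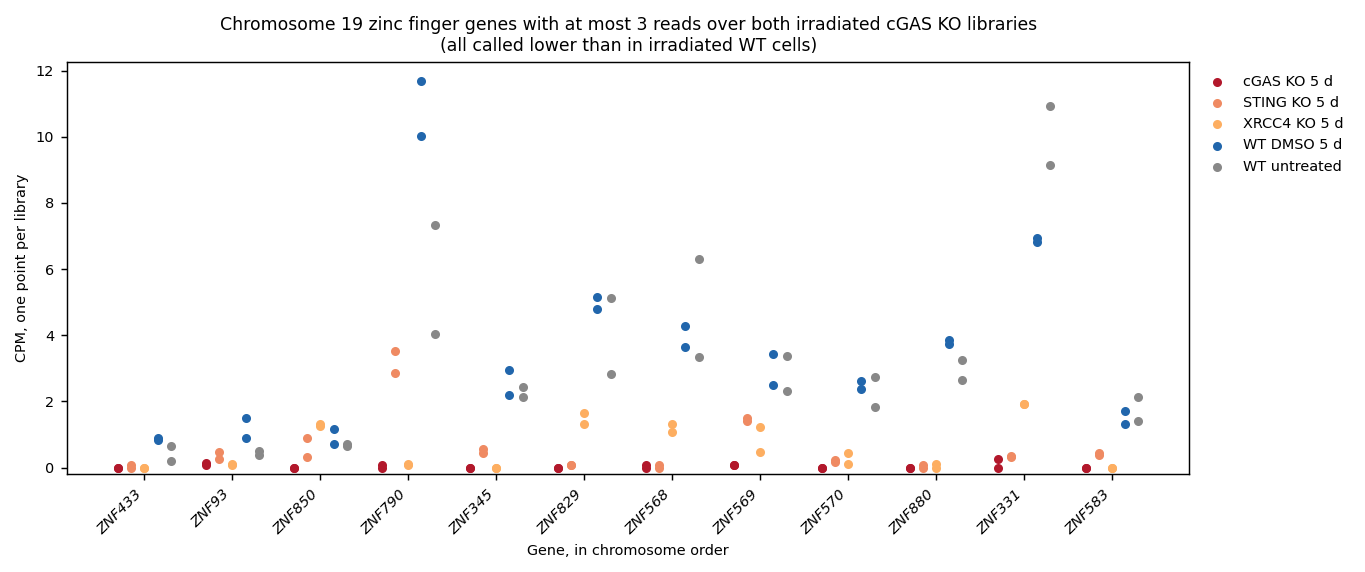
CPM per library of the 12 chromosome 19 ZNF genes with at most 3 reads over both cGAS KO libraries, in chromosome order, for 3 irradiated knockout lines, irradiated WT and untreated WT cells. All are at or near 0 in cGAS KO cells and above it in both WT groups, and which of them are near 0 differs between the knockout lines.

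Further genes had no read in the knockout. The glutamate transporter SLC1A1 had 0 and 0 reads in cGAS KO cells, against 109 and 80 reads in WT cells, at least 55.6-fold lower (adjusted p 0.0021). Ceruloplasmin (CP) had 0 and 0 reads in cGAS KO cells and 42 and 77 reads in WT cells, at least 35-fold lower, and AUTS2 had 0 and 0 reads in cGAS KO cells and 52 and 50 reads in WT cells, at least 30-fold lower (adjusted p 0.009 and 0.00094). All 3 had at most 0.235 CPM in every library of the STING KO and XRCC4 KO lines. Among the genes with the largest increases, the guanine deaminase GDA had 29.8 and 24.3 CPM in cGAS KO cells, against 1.86 and 1.36 CPM in WT cells (4.07 ± 0.50, adjusted p 0.0017). The calcium buffer CALB1 had 1043 and 1122 CPM in cGAS KO cells, against 145 and 103 CPM in WT cells (3.12 ± 0.53, adjusted p 0.0067). ESRP1, a splicing regulator of epithelial cells, had 191 and 192 CPM in cGAS KO cells, against 36.0 and 23 CPM in WT cells (2.70 ± 0.39, adjusted p 0.0036). GDA, CALB1 and ESRP1 were high in both other knockouts too, with GDA at 29.6 and 28.8 CPM in STING KO cells and 28.2 and 27.5 CPM in XRCC4 KO cells.

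The cGAS and STING knockouts, lines that lack neighbouring steps of the pathway, were also compared directly. Here 10 genes were called lower in cGAS KO cells (0.0658%) and 11 higher (0.0724%), and 384 and 360 genes had an unadjusted p below 0.05. MB21D1 was lower in the cGAS KO line, at 1.24 and 1.30 CPM against 14 and 11.1 CPM in the STING KO line (-3.30 ± 0.23, adjusted p 0.00042). TMEM173 was higher, at 63.5 and 66 CPM in the cGAS KO line against 9.97 and 9.16 CPM in the STING KO line (2.76 ± 0.23, adjusted p 0.0014). The other genes with the largest called changes were ZNF790, ZNF569, PCYT1B and the protease PRSS21, lower in cGAS KO cells, and the junction protein JAM3, the phosphatase PTPRB, EEF1A2 and SLC35G2, higher in them. No interferon-stimulated effector and no MHC class I gene was called by edgeR. DESeq2 called 2 effectors higher in cGAS KO cells, edgeR without the filter on low counts called 22 effectors and 1 MHC class I gene higher, and 3 effectors and 1 MHC class I gene had an unadjusted p below 0.05, all higher. The median of the effectors was 0.59, higher in the cGAS KO line, and was 0.89 without STING KO library 1 and 0.36 without library 2. A change that was not called does not show that the lines are alike.

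The label of the cells was checked against markers. KRT5 and KRT14 were abundant in all 4 libraries, at 7343 and 1969 FPKM in cGAS KO library 1. Of 20 immune and blood cell markers, 6 had no read in any of the 4 libraries, and all 20 together summed to 13 and 11.3 CPM (here without the TMM factor) in cGAS KO cells and 19.7 and 17.3 in WT cells. The 9 endothelial markers in the table summed to 4.4 and 5.23 CPM in cGAS KO cells and 10.1 and 5.1 in WT cells. No immune marker was called by edgeR in the fit of all 14 libraries or by DESeq2, with 4 tested, and none had an unadjusted p below 0.05. Without the filter on low counts edgeR called 1 lower.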

How the data were processed

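RNA-seq libraries of irradiated and untreated MCF10A cells were analysed from 2 deposited tables. The first holds estimated counts per gene, which the authors made and did not normalise, and the second holds FPKM values, which the authors scaled by gene length and library size. The tools bcl2fastq, FastQC, STAR, Cuffnorm and DESeq2 and the build hg19 are named without versions or roles, per the submitters' processing notes. Table intervals can span several genes. Whether counting used strand: not given in the sources used here.

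Estimated counts were rounded to whole numbers and fitted with edgeR 4.0.16 (R 4.3.3, TMM, filterByExpr by group, robust quasi-likelihood) over 14 libraries in 7 groups, which leaves 7 residual degrees of freedom. The 14 library totals ranged from 5590077 to 16595879. The script was tested on simulated data. Tests were two-sided with Benjamini-Hochberg adjustment over 15190 genes. Alternatives were DESeq2 1.42.0, limma 3.58.1 (voom, and log2(FPKM + 1)), other scaling and filtering, fewer groups, a replicate block, and each library left out. Effects of FPKM fits are on the log2(value + pseudocount) scale, which understates changes of low genes.

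The comparison, the 28 gene lists and the naming rule were chosen with earlier results of these data known. The rule names MB21D1, TMEM173 and 25 anchor genes, up to 4 called genes per list and direction, the 10 largest called changes per direction without overlap and at least 1 CPM, up to 5 genes per direction with no read in one group, and up to 5 per direction against STING KO. Not all are printed, and some named genes are not reported here. TBK1, IFNE, IFNGR1, IFNAR1, SAMD9, B2M, C3, S100A8, S100A9, IL1A, TIMP1, SC5D, SQLE and any other gene outside it were chosen after their values were seen, as were the 5 chromosomes and the ZNF genes of chromosome 19.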

Additional observations from a re-analysis of the deposited data

How the results depend on the processing

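The counts of calls moved with the processing, and no called gene among the named ones changed sign. Of the values of the 138 named genes under the alternatives, 1460 kept direction and side of the threshold, 419 lost a call and 36 gained one. Uncalled log2 fold changes against WT that changed sign with a library left out were those of TMEM173 (-0.36 to 0.29), CDK1 (-0.13 to 0.53), MKI67 (-0.19 to 0.48), PTPRB (-0.31 to 0.23) and SLC35G2 (-0.051 to 0.0039). On FPKM, MKI67 was at -0.049 with pseudocount 1, with or without a filter, and at -0.053 with pseudocount 0.1. Against 960 lower and 943 higher genes, there were 1652 lower without the filter on low counts, 1451 lower and 1816 higher with the 4 compared libraries alone, and 2184 lower and 2071 higher with voom and weights per group. On the FPKM table there were 490 lower and 233 higher with pseudocount 1, 503 and 225 with pseudocount 0.1, and 290 and 139 without a filter. In a fit of the 5-day groups without inhibitor, chosen after seeing the data, there were 1615 lower and 1724 higher. Leaving out each library gave 154 to 517 lower and 159 to 306 higher. More genes were higher than lower with the 4 libraries alone, in the added fit and without either cGAS KO library. In the fits that leave out a library, 1 arm has a single library, which is assumed to vary like the other groups.

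Of the interferon-stimulated effectors, 31 were lower, and 49 without the filter, 7 with the 4 libraries alone, 17, 16 and 9 in the FPKM fits and 2 to 41 with each library left out. Against STING KO cells, 10 genes were lower and 11 higher. These became 34 and 28 with DESeq2, 187 and 183 without the filter, and 5 and 2 with the 4 libraries alone. They were 6 and 7 on FPKM with pseudocount 1, and 28 and 31 on FPKM without a filter. With pseudocount 0.1 there were 3 higher, with voom 46 lower, and in the added fit 27 lower. Leaving out each library gave 1 to 6 lower and 1 to 4 higher. The causes of these shifts were not tested.

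Between the cGAS KO and the irradiated WT libraries compared here, same-numbered deviations correlated at r = -0.013. The 2 cGAS KO libraries differed little (chi-square per gene 2.95, against 32.7 in WT), so this value cannot show whether replicate numbers pair them. Same-numbered libraries of the WT groups correlated at 0.245 to 0.439. With a replicate block there were 1043 genes lower and 997 higher, 35 effectors lower, and 11 lower and 9 higher against STING KO. Depth limits genes such as IFNB1, with 18 reads over both WT libraries, which did not pass the filter on low counts.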

Other observations

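Of 32 hypoxia and glycolysis genes, 5 were called lower in irradiated cGAS KO cells and none higher, with a median log2 fold change of -0.46 against -0.02 over all genes. Without either cGAS KO library none was called, and without WT library 1 or 2 it was 2 or 1. CA9, a carbonic anhydrase induced by low oxygen, had 3.21 and 2.16 CPM in cGAS KO cells and 32.6 and 43.5 CPM in irradiated WT cells (-3.80 ± 1.02, adjusted p 0.042 in edgeR). HK2, the first enzyme of glycolysis, had 92.9 and 85.6 CPM in cGAS KO cells and 146 and 134 CPM in WT cells (-0.65 ± 0.16, adjusted p 0.028). PDK1, which holds pyruvate back from mitochondria, had 21.3 and 24.7 CPM in cGAS KO cells and 37.0 and 52.4 CPM in WT cells (-0.96 ± 0.20, adjusted p 0.013). In the list of the integrated stress and unfolded protein response, VLDLR, CEBPB and EDEM1 were called lower among 36 genes, and none was higher. Over all genes the shares were 6.32% lower and 6.21% higher. Without the filter on low counts edgeR called 12 of the list lower and 1 higher.

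Of 19 histone genes, 3 were lower, and none without cGAS KO library 1, cGAS KO library 2 or WT library 1. HIST2H2BE, whose transcript is polyadenylated outside S phase, had 9.52 and 8.14 CPM in cGAS KO cells and 38.1 and 18.3 CPM in irradiated WT cells (-1.67 ± 0.34, adjusted p 0.012 in edgeR). Among 30 NRF2 genes 2 were lower and 2 higher, near the 6.32% and 6.21% over all genes. The transporter ABCC3 had 35.6 and 39.6 CPM in cGAS KO cells and 141 and 183 CPM in irradiated WT cells, both below the 415 and 381 CPM of untreated WT cells (-2.11 ± 0.21 against irradiated WT, adjusted p 0.00051). Among 38 Notch, EGF and TGF-beta genes, the EGF receptor ligands EPGN and NRG1 were higher and SMAD3 was lower, also near those shares. EPGN had 255 and 262 CPM in cGAS KO cells and 127 and 59.6 CPM in irradiated WT cells (1.47 ± 0.39, adjusted p 0.038).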
